A study of Mus musculus with 24 samples.

Results

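The genes described here encode the enzymes that write N6-methyladenosine (m6A) into RNA and the proteins that hold those enzymes together, followed in the spinal cord of mice after nerve injury. They were chosen by name, as the 10 genes of the deposited table called Mettl3, Mettl14, Wtap, Virma, Rbm15, Rbm15b, Zc3h13, Cbll1, Mettl16 and Mettl5, of 32884 genes in all, and all 10 were found. Their m6A peaks were those listed under the same gene identifiers, which gave 31 of 32669 peaks in sham, 32 of 40195 on day 3, 27 of 34136 on day 7 and 29 of 38655 on day 14.

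Mice underwent spared nerve injury, in which the common peroneal and tibial nerves are tied and cut while the sural nerve is left, a model of neuropathic pain. Spinal cord was taken on day 3, 7 or 14, and sham-operated mice, in which the sciatic nerve was only exposed, are labelled day 3. For every group 3 libraries were made from the input, which is poly(A) RNA, and 3 from the fragments bound by an m6A antibody, so the 4 groups hold 24 libraries. No genetic change, strain or age is given in the labels. Neither the side nor the segment of cord is given, and no label ties a library to its own mouse. The p-values therefore reflect how far the libraries of a group differ, and that difference may be technical. Sham cords of days 7 and 14 were not analysed here, so time after surgery and injury cannot be told apart on those days.

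In mammals m6A is placed on nuclear messenger RNA by a heterodimer of METTL3, the subunit that carries out the catalysis, and METTL14, which binds RNA and stabilises its partner. WTAP, VIRMA, RBM15, RBM15B, ZC3H13 and CBLL1 form the adaptor part of the complex, which guides the heterodimer to its sites and keeps it in the nucleus. METTL16 and METTL5 act outside this complex, METTL16 on a spliceosomal RNA and on the messenger of a methyl donor enzyme, and METTL5 on ribosomal RNA. The antibody marks fragments that carry the modification, and sites in messengers lie mostly in long internal exons and near stop codons, often at the word GGACT.

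Short sequences are shown for a pair of member peaks, chosen among those that fell in the RefSeq windows from 250 bases before to 50 bases after a gene's start (GRCm38.p6), one with and one without the word GGAC on the gene's strand. Windows were found for 8 of the 10 genes, and peaks of Wtap and Rbm15 and other peaks of Rbm15b also reached into them. In Mettl5 the sequence shown is a stretch of the 5′ UTR peak that was listed on days 3 and 14 only, at chr2:69885573-69885602 on the minus strand, with the word GGAC, the core of the m6A consensus, in capitals. In Rbm15b it is the middle of the sham peak that had a fold enrichment of 21.1, at chr9:106887100-106887129 on the minus strand. The authors place that peak in a 5′ UTR, but the stretch shown lies before the RefSeq start of Rbm15b. It is inside the deposited gene model, which begins further upstream.
Mettl5: tgcggggagGGACcgcgaGGACcagctaga
Rbm15b: agcgccgggcccctcggcgccgctcccgcc
The Mettl5 stretch held GGAC 2 times on the gene's strand, with first letters at bases 23 and 32 after the start, and not on the other strand. GGAC was searched by its letters and lay in the 50 bases after the start in 18.9% of 32851 windows, and at least 2 times in 2.03%. The Rbm15b peak held no GGAC on the gene's strand and 1 on the other, and 84.4% of its 90 bases were G or C. On either strand GGAC occurred in 87.7% of all windows of 300 bases, so its presence in a window says little by itself.

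Marker genes of the tissue were present in every library. All 8 spinal cord markers, Hoxc10 and Chat among them, were detected, the lowest at 2.62 FPKM (fragments per kilobase of transcript, scaled to the reads of the library), and the 3 Schwann cell markers summed to at most 1.91 FPKM. The summed level of 4 microglia markers was 37.4 to 43.7 FPKM in sham, 55.4 to 57.7 on day 3, 58.0 to 67.8 on day 7 and 49.7 to 51.1 on day 14, without overlap between sham and any injured day. C1qa was the highest of the 4, and P2ry12 alone overlapped sham on day 14 (7.59 to 8.09 against 5.70 to 7.74 FPKM). Of all genes tested 20.9, 4.43 and 18.3% had no overlap with sham on days 3, 7 and 14. Erythroid markers summed to 115 to 190 FPKM in sham and 219 to 423 in injured libraries. Astrocyte markers summed to 498 to 509 FPKM on day 14, below sham at 562 to 640. Oligodendrocyte markers summed to 3294 to 3314 on day 14, below sham at 3422 to 4025. Neuron markers summed to 743 to 754 on day 3 and 743 to 750 on day 14, above sham at 543 to 713. On the other injured days these lists overlapped sham. In bulk tissue, fewer cells of a type and less RNA per cell cannot be told apart, and the part of these shifts in the values below was not tested.

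For these genes a pair of input libraries, the day 7 one numbered 3 and the sham one numbered 3 (day 7 library 3 and sham library 3 below), differed from the remaining 10. The levels of the 10 genes summed to 54.4 and 53.9 FPKM in those libraries and to 41.5 to 42.9 FPKM in each of the others. In both of them 7 of the 10 genes were higher than the mean log2 level of libraries 1 and 2 of their group, where 40.3% of all 15564 genes tested were, and 1 was lower than that mean in both, where 44.8% were. The tests against sham below are therefore given with all 12 input libraries and without these.

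The order of the levels was stable. Zc3h13 was the highest of the 10 in all 12 input libraries with a mean of 11.7 FPKM ± 1.79 (SD, n = 12), Wtap was next in all 12 with 6.76 ± 0.464, and Rbm15 was the lowest in all 12 with 1.20 ± 0.210. Virma (4.90 ± 0.783), Rbm15b (4.58 ± 0.223) and Cbll1 (3.95 ± 0.787) followed Wtap, and Mettl14 (3.01 ± 0.561), Mettl3 (2.90 ± 0.274), Mettl16 (2.60 ± 0.712) and Mettl5 (2.45 ± 0.299) lay close together. Within each of these 2 bands the ranges of neighbouring genes overlapped, so neighbours there did not differ beyond their spread over all 12 libraries. Over the 10 that did not stand apart Rbm15b, at least 4.04 FPKM, and Cbll1, at most 4.03, did not overlap. Nor did Mettl3, at least 2.57 FPKM, and Mettl16, at most 2.56. The most abundant member was at the 77.1 percentile of all genes tested and the least abundant at the 16.9 percentile. Over the 10 libraries that did not stand apart, the highest value of a gene was 1.11 to 1.31 times its lowest.

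**Figure D1:**
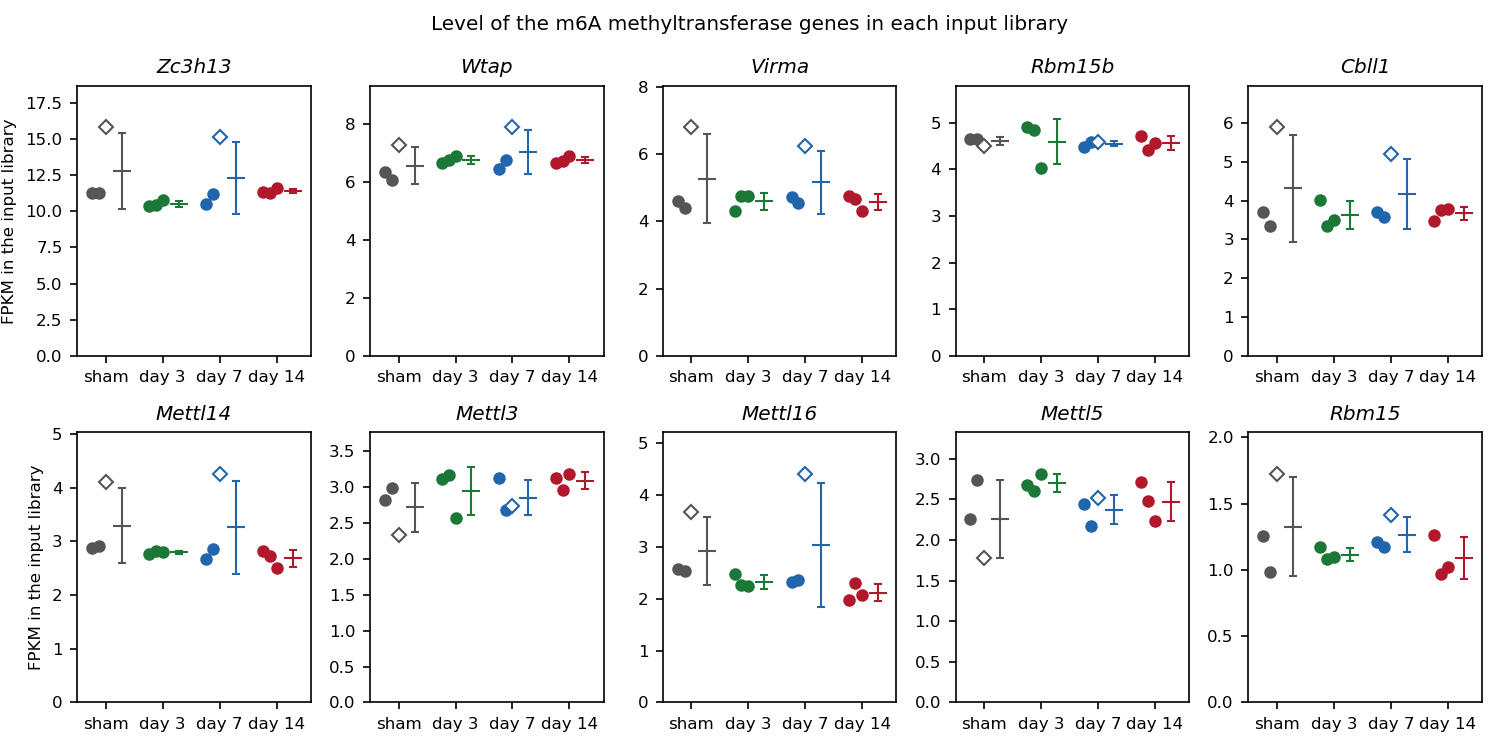
Level of each gene (FPKM, vertical axis from 0) in the 12 input libraries by group, in order of mean level. Circles are single libraries, open diamonds are day 7 library 3 and sham library 3, and the bar at the right of each group is its mean with the SD of 3 libraries; the diamonds lie above the mean of the circles of their group in 7 genes.

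None of the 10 genes passed the test between any injured day and sham, or between injured days. Of 15564 genes tested with limma, 0.0578% passed an adjusted p of 0.05 on day 3 against sham, 0.103% on day 7 and 0.0514% on day 14. Between days the shares were 0.0129% for day 7 against day 3, 0.0129% for day 14 against day 3 and 0.0321% for day 14 against day 7, and 0.103% passed the F test over the 3 injury contrasts. The count of members was 0 in each of these 7 tests. It was also 0 at an unadjusted p under 0.05 in each pairwise contrast, where 6.24, 2.53 and 4.92% of all genes passed on days 3, 7 and 14 against sham, and 4.05, 1.75 and 4.46% passed for day 7 against day 3, day 14 against day 3 and day 14 against day 7. The 3 injury contrasts share the sham libraries. Same-numbered libraries of sham and day 7 deviated together, but number 3 was the library apart in both groups. In its deviations sham library 1 was closer to day 7 library 2 (r = 0.619) than to its own number (0.459). A pairing by number is therefore not settled. With the replicate number as a block 9 genes passed on day 7, against 16 without it, and 0 members in either fit. In fits of sham and day 7 alone 2 genes passed with the block, an alternative chosen after seeing the data, and 1 without it, in both cases no member.

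Without the libraries that stood apart the count of members stayed at 0, while 7.07% of all genes passed the adjusted threshold on day 3, 1.11% on day 7, 4.71% on day 14 and 6.85% in the F test. That fit called 1101, 173 and 733 genes on the 3 days, none of them a member. The difference from sham of largest size among the 10 was then 0.12 on day 3, 0.098 on day 7 and 0.22 on day 14, on the scale of log2(FPKM + 0.5). On that scale the median difference of the 10 was 0.0069 on day 3, -0.019 on day 7 and 0.0021 on day 14, beside 0.017, 0.0049 and 0.022 for all genes. With all 12 libraries the medians of the 10 were -0.16, -0.015 and -0.15, beside 0.028, 0.0062 and 0.031 for all genes. Some libraries kept in the fit without those that stood apart were nearly alike for abundant Mbp. It had 1946.5 and 1946.3 FPKM in day 7 libraries 1 and 2, and 1613 to 1630 on day 3. The p-values of that fit may therefore rest on technical spread.

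**Figure D2:**
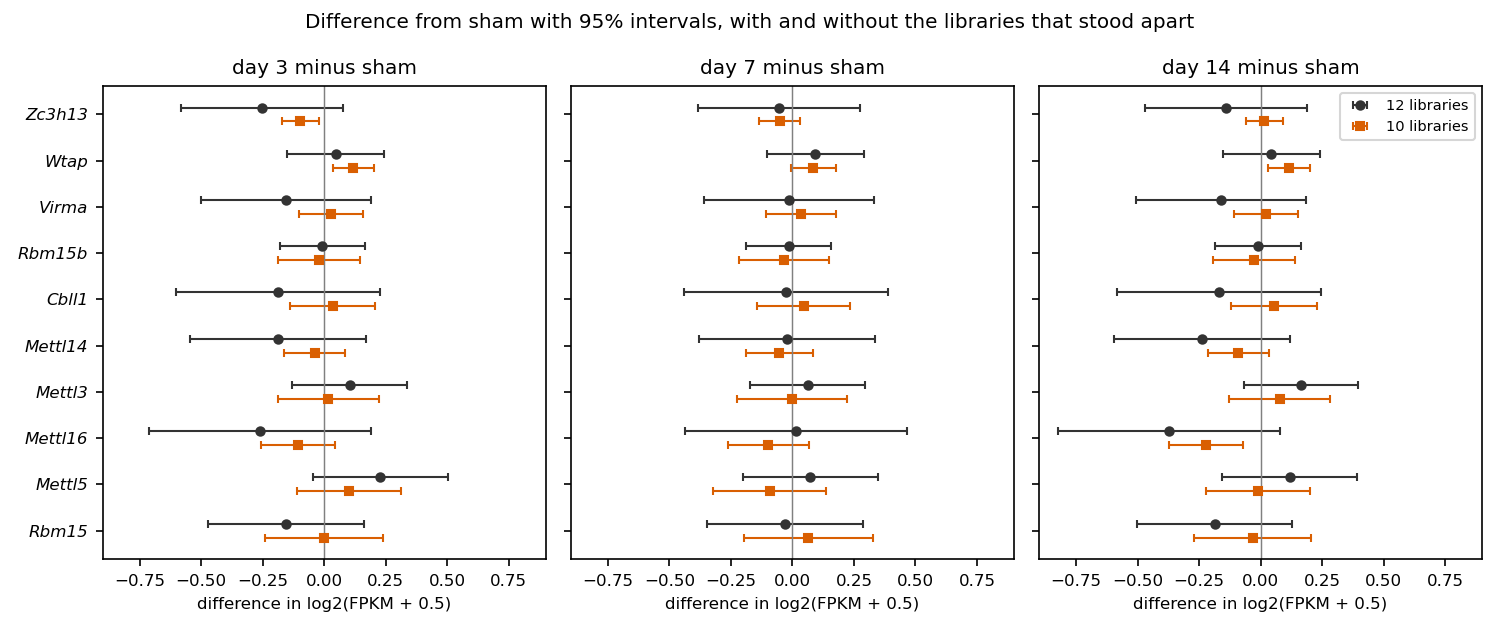
Difference of each injured day from sham for the 10 genes, in log2(FPKM + 0.5), with 95% intervals of the limma fit. Circles are fits with all 12 input libraries and squares fits with the 10 that did not stand apart; the circles' intervals all cross 0, and the squares' are narrower and leave out 0 for Zc3h13 on day 3, Wtap on days 3 and 14 and Mettl16 on day 14, all with adjusted p above 0.05.

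Mettl3, the catalytic subunit (chromosome 14, 52294841 to 52305128, minus strand), had 2.82, 3.00 and 2.34 FPKM in sham, 3.11, 3.18 and 2.57 on day 3, 3.13, 2.68 and 2.74 on day 7, and 3.14, 2.96 and 3.19 on day 14. The groups overlapped on every day. On day 14, where the mean was highest, the difference from sham was 0.16 ± 0.11 (SE, log2 scale, adjusted p = 0.70), and its 95% interval ran from -0.07 to 0.40. Without the libraries that stood apart it was 0.08, with an interval from -0.13 to 0.28.

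Mettl14, the partner of Mettl3 (chromosome 3, 123368297 to 123386108, minus strand), had 2.87, 2.91 and 4.11 FPKM in sham, 2.77, 2.82 and 2.81 on day 3, 2.68, 2.85 and 4.26 on day 7, and 2.82, 2.73 and 2.51 on day 14. All libraries of days 3 and 14 lay below all sham libraries, by a narrow margin where sham library 3 is left aside. The difference on day 14 was -0.24 ± 0.16 (SE, adjusted p = 0.70) with all libraries and -0.091 without those that stood apart, with intervals from -0.60 to 0.12 and from -0.21 to 0.033. The ratio of Mettl3 to Mettl14 FPKM was 0.916 to 1.27 in 10 libraries and 0.569 to 0.643 in the 2 that stood apart, so the near-equal levels of these subunits held in every group but not in those libraries.

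Zc3h13, which anchors the complex in the nucleus (chromosome 14, 75284373 to 75344426, plus strand), had 11.3, 11.3 and 15.8 FPKM in sham, 10.3, 10.4 and 10.8 on day 3, 10.5, 11.2 and 15.1 on day 7, and 11.4, 11.3 and 11.6 on day 14. Day 3 lay below sham in every library, and days 7 and 14 overlapped it. The difference on day 3 was -0.25 ± 0.15 (SE, adjusted p = 0.695), and -0.098 without the libraries that stood apart (unadjusted p = 0.018, adjusted p = 0.127). In that fit its F test had an unadjusted p of 0.0214 and an adjusted p of 0.135, which did not pass.

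Wtap, the adaptor that brings the heterodimer to nuclear speckles (chromosome 17, 12966796 to 12994169, minus strand), had 6.32, 6.05 and 7.27 FPKM in sham, 6.62, 6.74 and 6.89 on day 3, 6.42, 6.76 and 7.87 on day 7, and 6.66, 6.70 and 6.87 on day 14. Every injured library was above sham libraries 1 and 2, and sham library 3 was above all but 1 injured library. With all 12 libraries the difference was 0.046 ± 0.089 (SE, adjusted p = 0.812) on day 3 and 0.043 ± 0.089 (adjusted p = 0.821) on day 14. Without the libraries that stood apart it was 0.12 ± 0.04 (SE) on day 3 and 0.12 ± 0.04 on day 14, with unadjusted p-values of 0.0117 and 0.013. Adjusted over all genes these were 0.10 and 0.127 and did not pass. The F test of Wtap in that fit had an unadjusted p of 0.044 and an adjusted p of 0.197, and did not pass.

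Mettl16, which methylates hairpins of the Mat2a messenger (chromosome 11, 74770830 to 74828525, plus strand), had 2.56, 2.52 and 3.67 FPKM in sham, 2.48, 2.26 and 2.24 on day 3, 2.33, 2.35 and 4.41 on day 7, and 1.97, 2.30 and 2.07 on day 14. All libraries of days 3 and 14 lay below all sham libraries, while day 7 overlapped sham. The difference on day 14 was -0.37 ± 0.20 (SE, adjusted p = 0.70), the largest in size of any member against sham, and -0.22 ± 0.07 without the libraries that stood apart (unadjusted p = 0.0093, adjusted p = 0.106). Neither passed the test.

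Groups without overlap were thus seen for Mettl14, Zc3h13 and Mettl16 on day 3, each lower than sham, and for Mettl14 and Mettl16 on day 14. That is 3 and 2 of 10 genes, where 20.9 and 18.3% of all genes tested had groups without overlap, and on day 7 it was 0 of 10, where 4.43% had. These shares of the 10 genes are near those of all genes. Between injured days 1 of 10 had groups without overlap in each contrast, where 16.4% of all genes had for day 7 against day 3, 21.6% for day 14 against day 3 and 17.2% for day 14 against day 7. They were Mettl5, lower on day 7 than on day 3 (-0.16, adjusted p = 0.791), Zc3h13, higher on day 14 than on day 3 (0.11, adjusted p = 1.0), and Mettl16, lower on day 14 than on day 7 (-0.39, adjusted p = 0.784), and none passed the test. Without the libraries that stood apart the limma fit gave Mettl5 -0.19 (adjusted p = 0.378) and Mettl16 -0.12 (adjusted p = 0.41). Zc3h13 stayed at 0.11, with an unadjusted p of 0.0049 and an adjusted p of 0.111. Neither day of that contrast holds a library that stood apart, and none of these passed either.

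The remaining adaptors and Mettl5 overlapped sham on every injured day. Virma, which directs methylation towards stop codons and 3′ UTRs (chromosome 4, 11485958 to 11550684, plus strand), ranged from 4.39 to 6.80 FPKM in sham and from 4.30 to 6.24 over the injured libraries. Cbll1, which encodes the ubiquitin ligase HAKAI (chromosome 12, 31484829 to 31499616, minus strand), ranged from 3.34 to 5.89 in sham and from 3.35 to 5.20 after injury. Of the paralogous RNA-binding adaptors, Rbm15 (chromosome 3, 107325421 to 107333673, minus strand) ranged from 0.987 to 1.73 in sham and from 0.969 to 1.41 after injury. Rbm15b (chromosome 9, 106880918 to 106887428, minus strand) ranged from 4.50 to 4.66 in sham and from 4.04 to 4.90 after injury. Rbm15b was 3.68 to 4.71 times as abundant as Rbm15 in 10 libraries and 2.61 to 3.24 times in those that stood apart. Mettl5 (chromosome 2, 69871198 to 69885615, minus strand) ranged from 1.78 to 2.74 in sham and from 2.17 to 2.82 after injury, and on day 3 its difference of 0.23 ± 0.12 (SE, adjusted p = 0.695) became 0.10 without the libraries that stood apart.

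The intervals show what the libraries could resolve. With 10 libraries the widest interval among these genes on day 3, that of Rbm15, ran from -0.24 to 0.24, and that of Zc3h13, the narrowest, from -0.17 to -0.02. A p above the threshold does not show that the levels were alike, and depth is unknown because counts of reads were not used here.

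Peaks were listed under all 10 genes in at least 2 lists, given by the authors as 1 list per group, so the peaks have no replicate error and no test. A peak had been called in 8 of the 10 in sham, in all 10 on day 3, in 9 on day 7 and in all 10 on day 14. Of 9366 genes with mean levels between those of the lowest and the highest member, 78.0, 88.0, 80.002 and 87.4% had a peak in these lists. Fold enrichment, the authors' ratio of antibody-bound over input signal, had a median of 6.32, 4.71, 6.14 and 4.92 over the peaks of the 10 genes in sham and on days 3, 7 and 14, beside 6.03, 4.54, 5.37 and 4.52 over all peaks. The lists of days 3 and 14 were longer and had lower medians than those of sham and day 7, and the members' medians were lower in those 2 lists too.

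**Figure D3:**
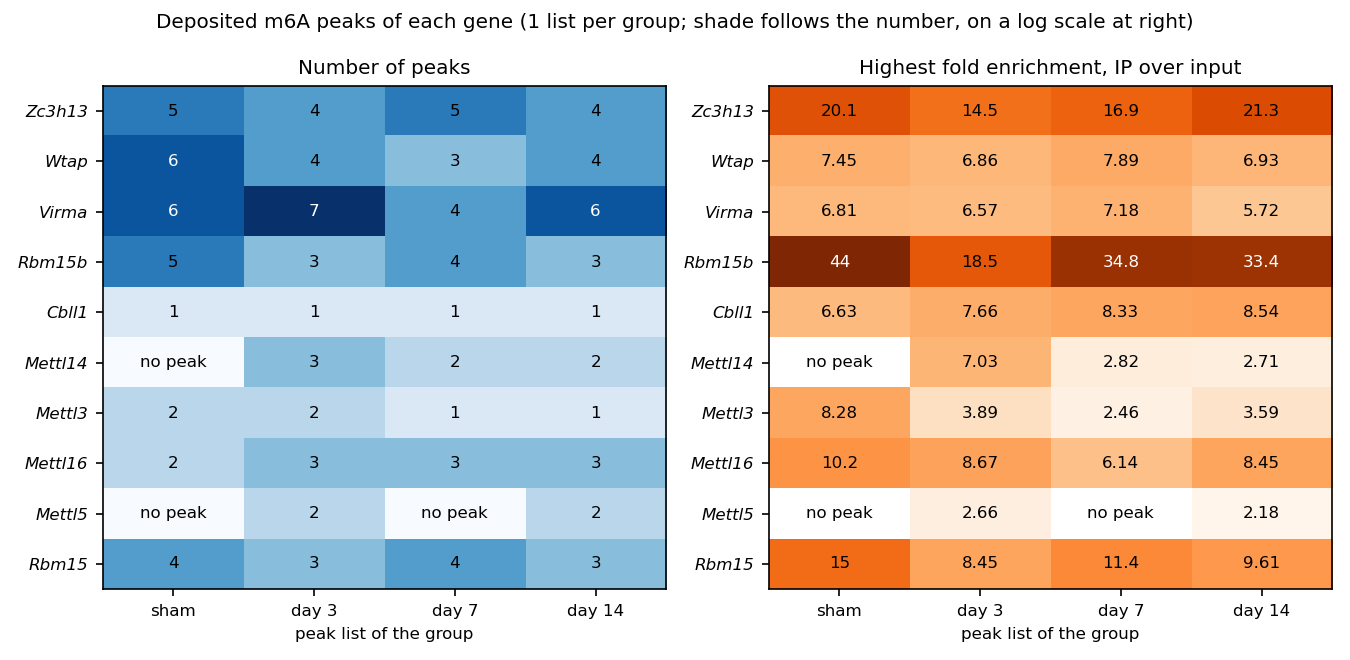
Number of deposited peaks (left) and the highest fold enrichment of any peak (right) for each gene in the list of each group, with the value printed in each cell and darker shade for higher values. Rbm15b and Zc3h13 hold the highest fold enrichments in every list, up to 44.0 and 21.3, and Mettl14 and Mettl5 have no peak in sham.

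Mettl14 had no peak in sham and 3, 2 and 2 peaks on days 3, 7 and 14. A 3′ UTR peak of 300 bases recurred at chr3:123369314-123369613 on day 3 and at chr3:123369254-123369553 on days 7 and 14, on the minus strand, with fold enrichments of 2.80, 2.81 and 2.71. A second, at the end of the gene, was listed on days 3 and 14 with 2.28 and 2.54. The peaks of highest fold enrichment on days 3 and 7, at chr3:123373053-123373651 with 7.03 and at chr3:123374489-123374668 with 2.82, had the weakest scores of the gene, log10 p-values of -1.40 and -1.54 in the authors' lists, while the recurring peak had -17.7, -24.3 and -17.4. The input level of Mettl14 did not pass the test on any of these days.

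Mettl5 had no peak in sham or on day 7, and the same pair of peaks on days 3 and 14. The 5′ UTR peak lay at chr2:69885496-69885615 in both lists, the first 120 bases of the gene model, with fold enrichments of 2.66 and 1.94. The spliced 3′ UTR peak had 1.92 and 2.18. A gene without a peak in sham and with at least 1 on the injured day was found for 2 of 10 members on day 3, where 12.5% of all genes tested were of that kind, for 1 of 10 on day 7, where 5.77% were, and for 2 of 10 on day 14, where 12.1% were. No member lost all its peaks on any injured day, as 1.38, 3.57 and 1.44% of all genes did. With counts of 1 or 2 genes these shares do not set the members apart from all genes.

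Mettl3 had a short 3′ UTR peak in sham, 90 bases at chr14:52294871-52294960 with a fold enrichment of 1.67. Ending at the same 3′ base, the peak spanned 240 exonic bases with 3.89 on day 3, 210 bases with 2.46 on day 7 and 299 bases with 3.59 on day 14. The highest value of the gene in sham, 8.28, belonged to a 90-base peak in its first exon with a log10 p-value of -1.88, and on day 3 a peak of 91 bases that shared 1 base with it had 3.52. The 3′ end of Mettl3 overlaps Tox4, a gene on the opposite strand with a mean of 8.54 FPKM, and on days 3, 7 and 14 a peak listed for Tox4, with 2.47, 1.83 and 2.92, shared 221, 91 and 221 bases with that of Mettl3. Of all peaks 4.68 to 5.08% were covered over at least 50% of their bases by a peak of a gene on the other strand. The libraries were made with a strand-marking method, per the labels' protocols, but whether peaks were called by strand is not given in the sources used here, so the signals of Mettl3 and Tox4 cannot be told apart. Mettl5 likewise meets Ssb, with 41.8 FPKM, at its 3′ end, where on day 3 a peak of Ssb shared 11 bases with its own.

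**Figure D4:**
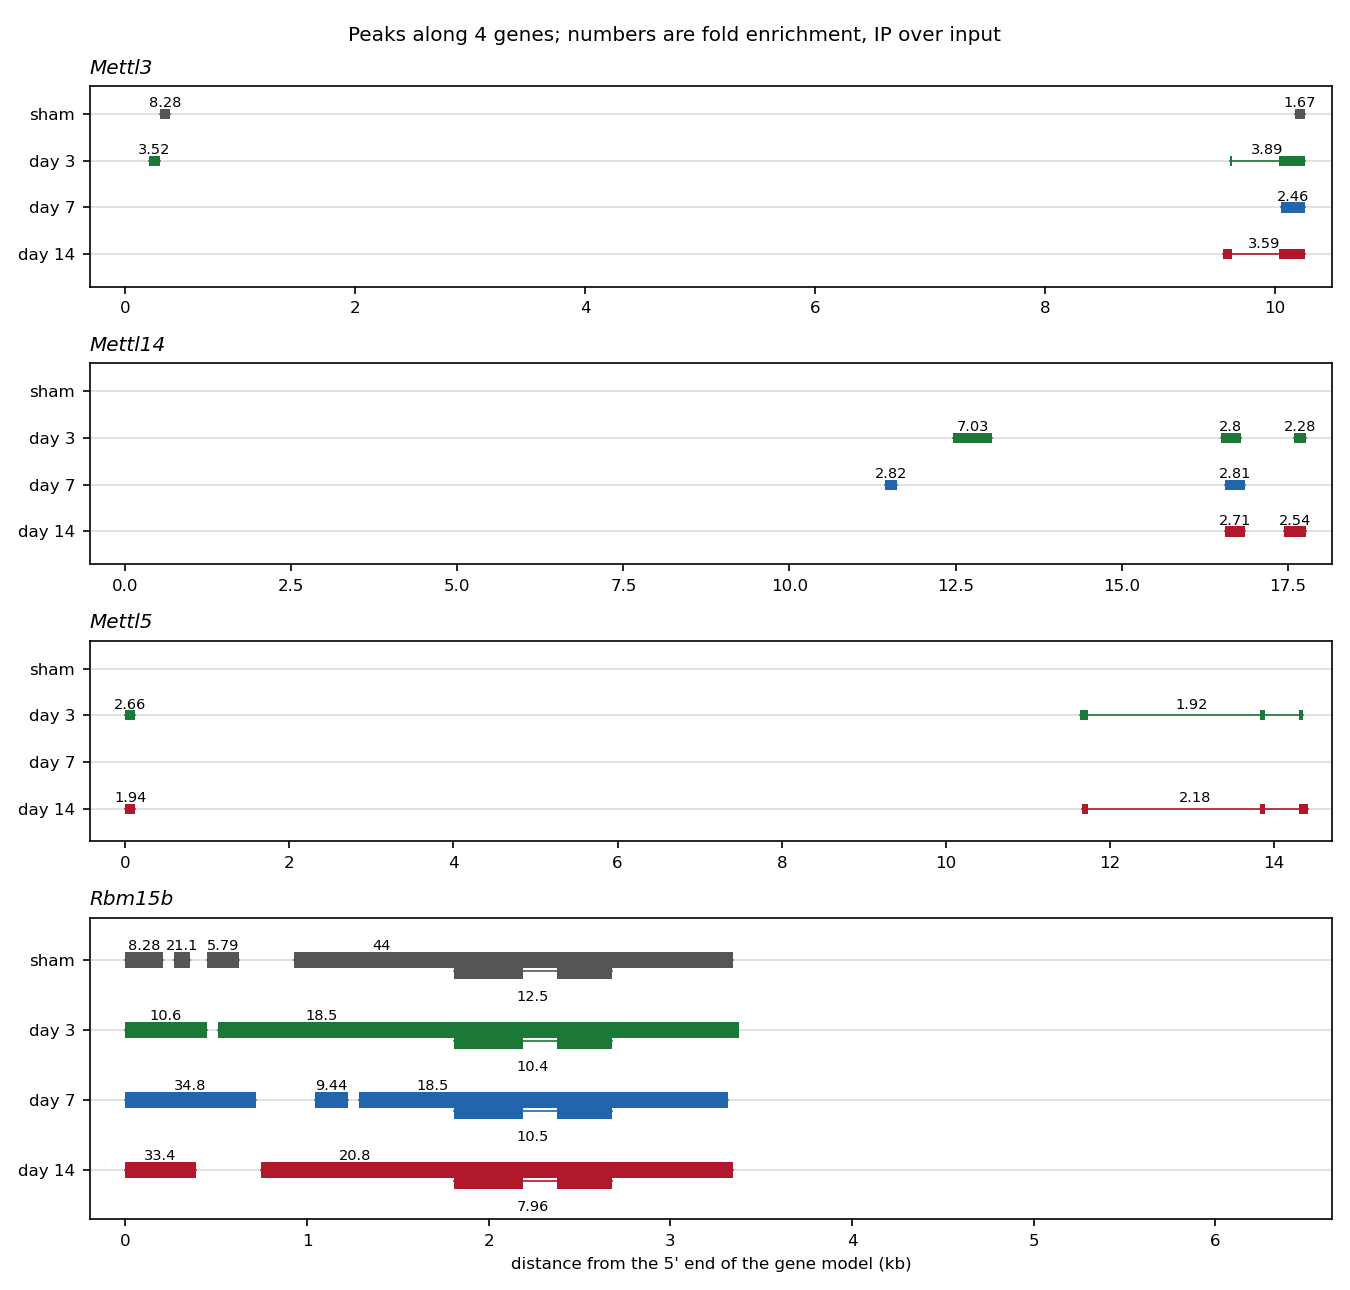
Deposited peaks along Mettl3, Mettl14, Mettl5 and Rbm15b in each list, by distance from the 5′ end of the gene model (kb, horizontal axis); bars are exonic blocks, thin lines join blocks of 1 peak, and numbers are fold enrichment. Mettl14 and Mettl5 have empty rows in sham, the 3′ peak of Mettl3 is shortest in sham, and the spliced peak of Rbm15b, drawn below the line, has the same bounds in all 4 lists.

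Rbm15b held the highest fold enrichments of the set, while Zc3h13 had the lowest log10 p-values, -1680 against -600 for Rbm15b in sham. A long unspliced peak had a fold enrichment of 44.0 in sham at chr9:106884083-106886502, and 18.5, 18.5 and 20.8 on days 3, 7 and 14. A spliced peak of 682 exonic bases had identical bounds, chr9:106884751-106885619, in all 4 lists, with 12.5, 10.4, 10.5 and 7.96. Of peaks with identical bounds in all 4 lists there were 194 over all genes, and their median ratio of day 14 over sham was 0.804, with quartiles of 0.614 and 1.05, so the ratio of this peak, 0.637, lay inside that range. At the 5′ end sham had 3 separate peaks with 8.28, 21.1 and 5.79. Days 3, 7 and 14 had 1 peak reaching the gene's first base with 10.6, 34.8 and 33.4. The log10 p-values of those peaks were -9.69, -10.6 and -9.13, weaker than those of the long peak. The 5′ peaks of the injured days are placed in a 3′ UTR in the authors' lists although they lie over the RefSeq start of Rbm15b. Rbm15b lies inside the gene model of Manf on the same strand, which had 7.17 FPKM, so reads of the genes cannot be told apart there, and the peaks of Rbm15b are uncertain as to their gene.

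Zc3h13 carried its strongest peak over internal exons in every list, at chr14:75324541-75329727 in sham and starting slightly before it on the injured days, with fold enrichments of 20.1, 14.5, 16.9 and 21.3. Its other exonic peaks and its 3′ UTR peak lay between 1.71 and 6.96. Rbm15 had its strongest peaks in exon 1, with 15 and 9.67 for adjoining peaks of sham and 8.45 for 1 peak of 2276 bases over the same stretch on day 3. Days 7 and 14 had 11.4 and 9.61 as their highest there. In these genes a stretch listed as 1 peak in a list was listed as several in another.

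Cbll1 had 1 peak in each list, in the 3′ UTR, with fold enrichments of 6.63, 7.66, 8.33 and 8.54 in sham and on days 3, 7 and 14. It covered 389 exonic bases in sham and 1197 to 1227 on the injured days, where it had 2 blocks. Mettl16 had 2 peaks in sham and 3 on each injured day, all placed in a 3′ UTR. Its main peak, at chr11:74817167-74817736 in sham, had 10.2 in sham and 8.67, 5.36 and 8.45 after injury, and the peak at the gene's end had 4.56 in sham and 5.86, 6.14 and 4.92. The peak that sham lacked had 1.99, 1.93 and 2.55.

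Wtap had 6 peaks in sham and 4, 3 and 4 on days 3, 7 and 14, and their exonic length was 1976 bases in sham and 2244 to 2933 after injury. Its main peaks were placed in a 3′ UTR, with 5.92 in sham and 6.86, 6.71 and 6.93 after injury for one, and 7.08 in sham and 6.32, 7.89 and 6.77 for the other. The highest value of Wtap in sham, 7.45, belonged to a peak in exon 2 with a log10 p-value of -1.65. Virma had 6, 7, 4 and 6 peaks in sham and on days 3, 7 and 14, mostly over exons 7 to 11 and the 3′ UTR, with highest values of 6.81, 6.57, 7.18 and 5.72.

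By place, 15 of the 31 member peaks in sham were in 3′ UTRs, 20 of 32 on day 3, 16 of 27 on day 7 and 20 of 29 on day 14, or 48.4, 62.5, 59.3 and 69.0%, beside 48.4, 50.7, 49.3 and 51.5% of all peaks. These counts follow the places given by the authors and take in the 5′ peaks of Rbm15b described above. Without Rbm15b they were 12 of 26, 17 of 29, 13 of 23 and 17 of 26. Peaks of 1 gene are not independent.

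Of the 31 member peaks of sham, 15 were shared with day 3, 14 with day 7 and 17 with day 14, when a peak of the same gene had to overlap reciprocally by at least 50% of its span. These are 48.4, 45.2 and 54.8%, beside 47.6, 52.1 and 48.6% of all sham peaks. With any shared base the counts were 29, 27 and 27 of 31. At the shared peaks the ratio of fold enrichment, day over sham, had a median of 0.832 on day 3, 0.902 on day 7 and 1.06 on day 14 for the members, beside 0.826, 0.882 and 0.852 for all shared peaks, and 10 of 15, 8 of 14 and 8 of 17 member peaks were lower than in sham, beside 67.5, 62.7 and 64.8% of all shared peaks. Single ratios ran from 0.420, the long peak of Rbm15b on days 3 and 7, to 4.48, a Wtap peak on day 7 where sham had separate peaks over the same stretch.

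The genes that remove and read m6A, supply its methyl donor or act beside these enzymes were taken from a list of 23, of which 22 were matched in the table and 20 tested. With all 12 libraries 0 of 20 passed on any injured day, and the smallest F test p-values were those of Ahcy, which breaks down the by-product of methylation (unadjusted 0.0527, adjusted 0.936), and Mettl4, another adenine methyltransferase (0.314). Without the libraries that stood apart, 1 was higher and 1 lower on day 3, 0 passed on day 7, and 2 were higher and 1 lower on day 14, where 7.07, 1.11 and 4.71% of all genes tested passed in either direction. With so few genes these counts do not set the list apart. Mat2a, which makes the methyl donor S-adenosylmethionine and whose messenger is a substrate of METTL16, was higher by 0.16 on day 3 and 0.18 on day 14 on the log2 scale (adjusted p = 0.0039 and 0.0034). It had 37.4 FPKM in each of sham libraries 1 and 2, 41.3 to 42.7 on day 3 and 41.7 to 43.2 on day 14, but 59.9 in sham library 3 and 71.4 in day 7 library 3, and with all libraries its differences were -0.06 and -0.04 and did not pass. In the 10 libraries the m6A reader Prrc2a was lower by 0.20 on day 3 (adjusted p = 0.00146), the RNA-binding reader Rbmx was higher by 0.15 on day 14 (adjusted p = 0.0277), and the reader Hnrnpa2b1 was lower on day 14 with a difference of -0.10 (adjusted p = 0.0372). With all 12 libraries these differences were -0.035 (adjusted p = 0.913) for Prrc2a, -0.034 (0.91) for Rbmx, which changed sign, and -0.044 (0.765) for Hnrnpa2b1, and none passed.

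The demethylases did not pass in either fit: Fto had a mean of 14.8 FPKM and Alkbh5 of 8.92 FPKM. Peaks were listed for 16, 18, 16 and 18 of the 20 tested genes in sham and on days 3, 7 and 14. Ahcy had none in any list.

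As a description of what moved with the catalytic pair, the 5 genes of mean FPKM at least 1 whose log2 levels were most like those of Mettl3 over the 12 input libraries were Scx, Polr2d, A230103J11Rik, Selenof and Dnttip1, with Pearson r of 0.857 to 0.896, and 0.752 to 0.786 over the 10 libraries. For Mettl14 they were Elmod2, Rbms3, Canx, Nktr and Rbm6, with 0.986 to 0.988 over 12 libraries and 0.745 to 0.806 over 10. Over the 10 libraries that did not stand apart the 5 most alike were other genes, for Mettl3 Zic2, Gm45315, Rsbn1l, Aen and Tbc1d25 (0.852 to 0.905) and for Mettl14 Gm12481, Lsm2, Ppp2r3d, Mapt and Adnp2 (0.871 to 0.919). Over 12 libraries the r of these genes ran down to -0.53 for Mettl3 and -0.86 for Mettl14, so which genes were most alike depended on the libraries that stood apart. The libraries share their groups.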

How the data were processed

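The members and gene lists were chosen with earlier results of these data known. Levels are FPKM as deposited by the authors, for 12 input libraries. Each group's IP libraries have 1 deposited peak list, with fold enrichment as the authors' ratio and log10 p as a score per the file headers; whether libraries were pooled for it is not given in the sources used here. Per the submitters' processing notes HISAT2, StringTie, ChIPseeker and edgeR were used, with no versions. Coordinates are those of the lists, with peak starts shifted to count from 1; the build is not named, and all 10 members overlapped the GRCm38.p6 RefSeq gene of their name. Sequences are from RefSeq, GRCm38.p6.

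Genes with mean FPKM of at least 0.5 (15564) were fitted as log2(FPKM + 0.5) with limma 3.58.1 in R 4.3.3 (trend), as 4 group means with 8 residual degrees of freedom. A gene passed below an adjusted p of 0.05 (Benjamini-Hochberg, all genes tested, two-sided), and fold changes on this scale understate those of low genes. Named were the members, list genes that passed or had the 2 smallest p, and the 5 genes most like Mettl3 and Mettl14; Fto and Alkbh5 were chosen after their values were seen. Same-numbered sham and day 7 libraries deviated together, with r of 0.459 to 0.793 for 3 pairs. Number 3 was the library apart in both groups, and sham library 1 was closer to day 7 library 2, with 0.619. Of the 15 pairs between other groups 4 were above 0.1 (-0.105 to 0.212). A pairing by number comes from these correlations, not from the labels, and they do not settle it. Fits and overlaps were tested on simulated data. Alternatives were other pseudocounts, filters, scalings, a replicate block, fewer libraries or groups, and stricter peaks or overlaps.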

Additional observations from a re-analysis of the deposited data

How the results depend on the processing

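The count of members that passed was 0 in all 154 alternative results, each of them 1 of the 7 tests under 1 other setting. With a replicate block over all 4 groups 5, 9 and 8 genes passed on days 3, 7 and 14, none of them a member. Same-numbered libraries deviated together for sham and day 7, where number 3 stood apart in both, but not for every pair of any other 2 groups. That does not settle a pairing by number, and the block changed no call of a member. Over 667 alternatives to the log2 differences from sham, 623 kept their direction and the smallest adjusted p was 0.10. The other 44 changed sign, and none had passed the test.

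Leaving out both libraries that stood apart changes the sham and day 7 groups to 2 libraries each. The values that then changed sign were on day 3 Virma 0.026 and Cbll1 0.033, on day 7 Mettl3 -0.0024, Virma 0.036, Rbm15 0.064, Cbll1 0.045, Mettl16 -0.098 and Mettl5 -0.093, and on day 14 Virma 0.021, Zc3h13 0.015, Cbll1 0.054 and Mettl5 -0.011. Rescaling to TPM gave Wtap -0.0048 on day 3, median-of-ratios scaling gave Mettl16 -0.0057 on day 7, and averaging near-identical libraries gave Rbm15b 0.0046 on day 3; the cause was not tested. Leaving out 1 library gave on day 3 Cbll1 -0.33 to 0.033, Virma -0.26 to 0.026, Rbm15b -0.053 to 0.074 and Wtap -0.0048 to 0.12. On day 7 it gave Cbll1 -0.18 to 0.20, Mettl14 -0.20 to 0.13, Mettl16 -0.25 to 0.16, Mettl3 -0.025 to 0.12, Mettl5 -0.058 to 0.20, Rbm15 -0.17 to 0.12, Virma -0.15 to 0.17 and Zc3h13 -0.21 to 0.10. On day 14 it gave Cbll1 -0.31 to 0.054, Mettl5 -0.011 to 0.24, Rbm15b -0.032 to 0.012, Virma -0.27 to 0.021, Wtap -0.0072 to 0.12 and Zc3h13 -0.22 to 0.015.

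Sham member peaks shared with days 3, 7 and 14 were 29, 27 and 27 with an overlap of at least 1 base, the same with any shared exonic base (an alternative chosen after seeing the data), and 9, 10 and 9 with 80%. On the stricter list (fold enrichment of at least 2, p of at most 1e-05) Mettl3 too had no peak in sham, Mettl5 had none on day 3, and the 5′ UTR peak of Mettl5 was left out on both days. Depth is unknown, so precision could be judged only from the spread between libraries, and the peak lists have no such spread.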
